A study of Mus musculus with 23 samples.

Results

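Classical major histocompatibility complex (MHC) class I presentation was followed through 10 genes in bulk RNA-seq of MC38 tumors: H2-K1, H2-D1, B2m, Tap1, Tap2, Tapbp, Nlrc5, Psmb8, Psmb9 and Psmb10. They were chosen by name, all 10 were found among the 26869 genes of the count table, and all 10 passed the filter on low counts in every comparison. MC38 is a mouse colon cancer line of C57BL/6 origin. Its cells were placed under the skin of female F1 mice, aged 8 to 12 weeks, from crosses of C57BL/6J with CC001/UncJ, CC002/UncJ, CC075/UncJ, CC036/UncJ, CC079/TauUncJ or CC080/TauUncJ, called here CC001F1 to CC080F1. These parents are Collaborative Cross lines, inbred from 8 founder strains, so each host carried 1 set of C57BL/6J chromosomes and 1 set from its Collaborative Cross parent, while the tumor cells were the same in all hosts. At a tumor size of 75 to 110 mm3 a mouse was given either antibody once, 200 µg of isotype control or of anti-PD-1 (aPD1), and the tumor was taken 48 h later. The study names CC001F1, CC002F1 and CC075F1 as responder (R) lines and CC036F1, CC079F1 and CC080F1 as non-responder (NR) lines by their response to aPD1, a class the sample labels do not give, so class and line cannot be told apart beyond these 3 lines each. The table holds 23 tumors, 2 per line and antibody except for a single CC080F1 tumor with aPD1, which gives 6 R isotype, 6 R aPD1, 6 NR isotype and 5 NR aPD1 tumors.

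MHC class I molecules show fragments of a cell's own proteins to CD8 T cells. H2-K1 and H2-D1 encode the heavy chains, and B2m encodes beta-2 microglobulin, the light chain they share. Peptides are cut by the proteasome, in which interferon-gamma (IFN-γ) induces the immunoproteasome subunits Psmb8, Psmb9 and Psmb10 in place of Psmb5, Psmb6 and Psmb7. The transporter Tap1-Tap2 moves peptides into the endoplasmic reticulum, where tapasin (Tapbp) helps load them. Nlrc5 is a transactivator that acts on the promoters of class I genes and is itself induced by IFN-γ. A bulk tumor mixes cancer cells and host cells, and a lower level can mean fewer cells of a type or less RNA per cell, which cannot be told apart here.

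Promoter letters shared by some of these genes are shown before the values. RefSeq promoter windows (250 bases before to 50 after the start, GRCm38.p6) were matched for 8 of the 10 genes, all but Tap2 and Nlrc5. Both strands of each window were searched for 6 motifs, each as fixed letters: the kappa B site of class I promoters (the first capitals of H2-K1), the interferon-stimulated response element (ISRE) as it stands in the heavy chain genes (their second capitals, with any base at the seventh and eighth positions), a general ISRE core (the first capitals of B2m, with any base at the fifth and sixth positions), TGACG (the core of the X2 box on which the Nlrc5 complex sits), CCAAT (read ATTGG in the Y box) and GGGCGG (a GC box). The stretches of the heavy chain genes, of B2m and of the shared Tap1-Psmb9 region are printed because they show how these letters are laid out, with matches of either strand in capitals (CCGCCC is GGGCGG on the other strand). H2-K1 spans chr17:34000349-34000468 (minus strand), H2-D1 spans chr17:35262913-35263055 (plus strand), B2m spans chr2:122147538-122147648 (plus strand), and the region between the starts of Psmb9 and Tap1 spans chr17:34187330-34187556, given on the plus strand of Tap1.
H2-K1: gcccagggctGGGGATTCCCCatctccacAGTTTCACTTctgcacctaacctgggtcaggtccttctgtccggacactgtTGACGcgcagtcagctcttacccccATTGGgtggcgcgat
H2-D1: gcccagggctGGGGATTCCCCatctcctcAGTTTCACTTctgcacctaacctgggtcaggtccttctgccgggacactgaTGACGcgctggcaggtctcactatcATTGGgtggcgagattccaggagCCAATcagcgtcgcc
B2m: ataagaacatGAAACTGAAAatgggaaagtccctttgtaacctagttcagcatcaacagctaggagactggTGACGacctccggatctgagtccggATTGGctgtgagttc
Tap1-Psmb9: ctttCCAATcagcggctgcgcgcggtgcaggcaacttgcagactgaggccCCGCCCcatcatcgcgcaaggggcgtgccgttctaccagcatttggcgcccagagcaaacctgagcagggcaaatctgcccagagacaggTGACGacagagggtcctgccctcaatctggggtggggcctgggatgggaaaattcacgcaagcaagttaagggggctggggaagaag

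The first 120 printed bases of H2-K1 and H2-D1 were the same at 108 positions (90%). The kappa B, ISRE, TGACG and ATTGG letters stood in the same order and at the same distances from each other in both. Their distances from the start differed, with the kappa B letters beginning at -111 in H2-K1 and at -171 in H2-D1. The kappa B letters were found in 0.0304% of all 32851 windows, the heavy chain ISRE in 1.72% and the general ISRE core in 3.44%, and of the 8 matched genes B2m held the last of these. TGACG was in the windows of H2-K1, H2-D1, B2m, Tap1 and Psmb9 and in 20.8% of all windows. CCAAT was in 6 of the 8 windows (the same 5 genes and Tapbp) and in 37.4% of all windows, and GGGCGG in those of Tap1, Tapbp and Psmb9 and in 35.7%. Tap1 and Psmb9 start 227 bases apart (both starts counted) on opposite strands, so their windows share 275 bases. The windows of Psmb8 and Psmb10 held none of the 6 motifs. A match describes letters only.

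By the GENCODE annotation of GRCm38, 7 of the 10 genes lie on chromosome 17 in or next to the MHC region: Tapbp (chr17:33915899-33929292), H2-K1 (chr17:33996017-34000347), Psmb9 (chr17:34181987-34187764), Tap1 (chr17:34187553-34197225), Psmb8 (chr17:34197721-34201454), Tap2 (chr17:34203527-34216321) and H2-D1 (chr17:35262730-35267499). B2m lies at chr2:122147686-122153083, Nlrc5 at chr8:94434356-94527272 and Psmb10 at chr8:105935735-105938444. Counts cover the exons of each gene. Libraries held 14494014 to 71868253 expected counts, with 6 shallow (up to 18354585; 2 R and 4 NR) and 17 deep (from 37242363). Together the 10 genes took 0.446% to 0.792% of all counts in a library. In the reference transcripts, few exact 100-base windows of these genes also occur in others on the same strand. The shares were 3.59% for H2-D1 and 0.96% for H2-K1, both with other MHC class I genes. Near matches, and matches among the founder transcriptomes on which counts were made, were not examined. On the opposite strand, Tap1 and Psmb9 overlap by 212 exonic bases, and 14.71% of the Tapbp windows and 8.05% of the Psmb8 windows fall on antisense or readthrough models (Gm19412 and Gm20496); the sources used here do not say whether counting used strand, so small parts of these counts may belong to the partner.

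Per kilobase of exon, B2m was the most abundant, with a median of 65227 normalized counts per kb over 23 tumors (47325 to 82758). The exon length merges all annotated exons of a gene and can exceed that of the transcripts present. The order of genes on this scale may therefore depend on the annotation. H2-D1 followed with 23517 and H2-K1 with 21722 normalized counts per kb. Each of these neighbors kept its order in all 23 tumors, and H2-K1 stood above Tapbp (4502) in all 23 as well. The next places were held by Psmb8 (3391 per kb), Psmb10 (3111), Tap2 (1593), Tap1 (1365), Psmb9 (805) and the transactivator Nlrc5 (689). Psmb8 exceeded Psmb10, Tap2 exceeded Tap1, and Psmb9 exceeded Nlrc5 in 18 of 23 tumors, so these neighbors did not differ beyond their spread in every tumor. The ratio of the highest to the lowest tumor was 3.29 for Nlrc5, 2.99 for Tap1 and 2.27 for Psmb9, and 1.47 to 1.91 for the other 7 genes.

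**Figure D1:**
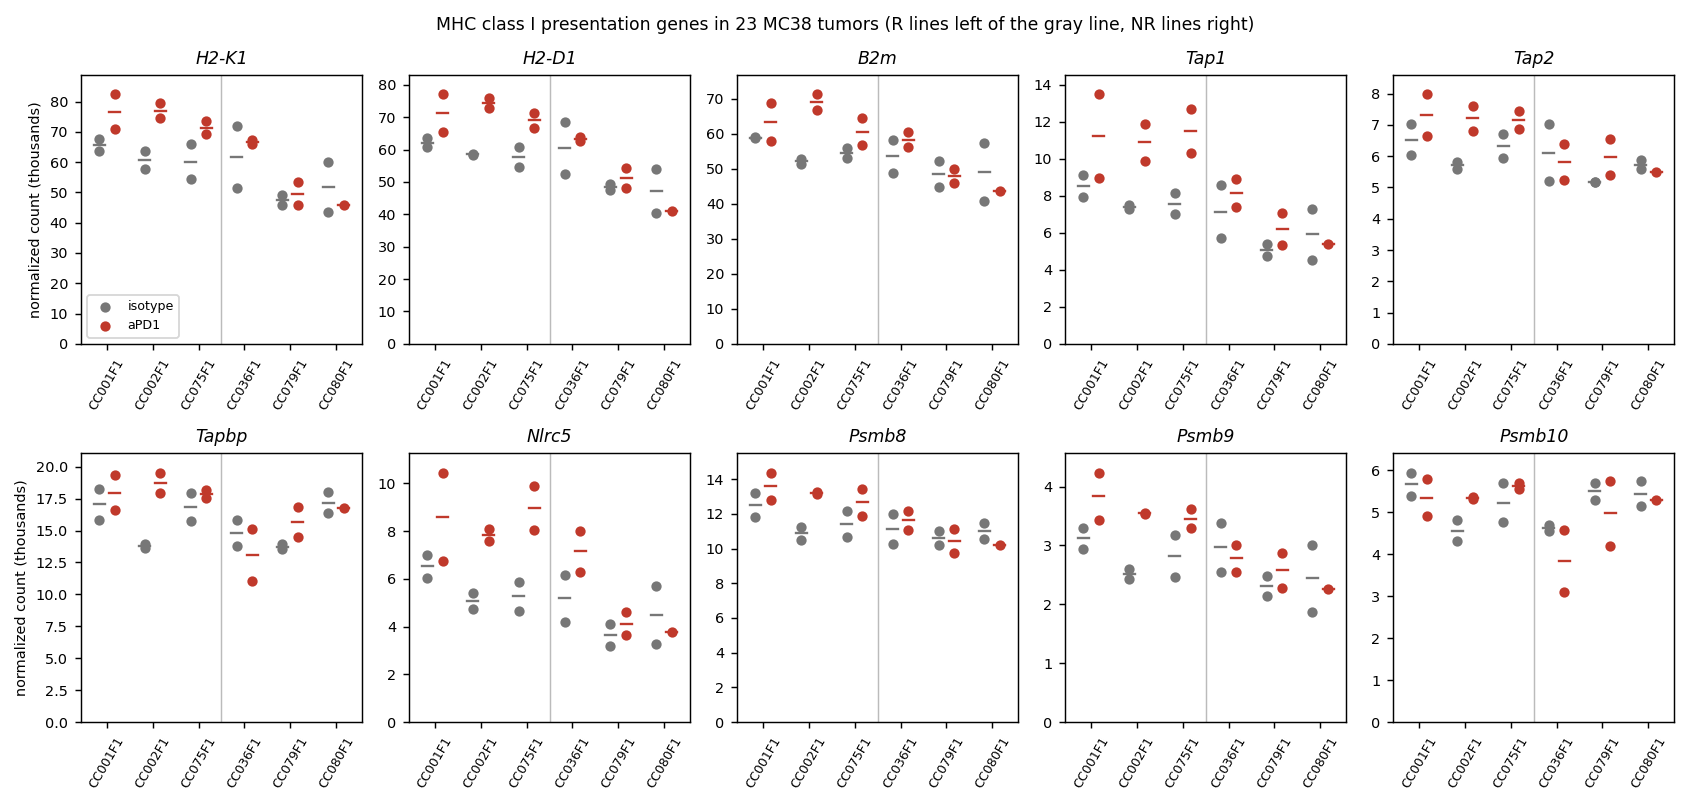
Normalized counts (scaled as the y axis states, from 0) of the 10 genes in every tumor, by host line (x axis) and antibody (gray, isotype; red, aPD1); dots are tumors and short bars are means of 1 or 2 tumors. The 6 R aPD1 tumors carried 69163 to 82324 normalized counts of H2-K1, above all 6 R isotype tumors (54487 to 67776) and all 5 NR aPD1 tumors (45674 to 67342).

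Over all 23 tumors, 8 of the 10 genes were higher in R than in NR lines with antibody as a term (DESeq2, adjusted p under 0.05 over all genes), and none was lower. The background is 7.66% of 17648 genes called higher in R lines in this comparison. Tap1 differed most, by 0.54 ± 0.11 on the log2 scale (SE; 1.45-fold, DESeq2 adjusted p = 4.5e-05), followed by Nlrc5 at 0.50 ± 0.16 (adjusted p = 0.0144). The heavy chains differed by 0.32 ± 0.08 for H2-K1 (adjusted p = 0.0024) and 0.29 ± 0.08 for H2-D1 (adjusted p = 0.0028), that is 1.25- and 1.23-fold. Psmb9 (0.29), B2m (0.22), Tap2 (0.21) and Psmb8 (0.18) also passed. Tapbp (0.17 ± 0.07, adjusted p = 0.096) and Psmb10 (0.11 ± 0.08, adjusted p = 0.40) did not. The median difference of the 10 genes was 0.26, beside -0.00053 over all genes tested. In the 17 deep libraries alone 1 of the 10 genes passed (Tap1, 0.47, adjusted p = 0.017), and the other 9 had log2 differences of 0.17 to 0.39 with adjusted p of 0.077 to 0.24; in the 6 shallow libraries alone 4 passed (H2-K1, H2-D1, Tap1 and Nlrc5, by 0.37 to 0.84). Without the line CC079F1 1 gene passed (Tap1, 0.43), and 3 passed without CC001F1. The fit takes tumors of a line as independent although class varies only between lines, and with counts summed per line 3 genes passed (Tap1, Tap2 and Psmb9), with log2 differences of all 10 genes at 0.14 to 0.52.

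In isotype tumors alone, which show the lines without checkpoint blockade, no gene of the 10 passed, with 5.52% of 15004 genes called in either direction (DESeq2). At an unadjusted p under 0.05, 2 of the 10 did, and edgeR and limma also called none. H2-K1 had 54487, 63777 and 67776 normalized counts (lowest, median, highest) in R isotype tumors and 43629, 50202 and 71861 in NR isotype tumors. The ranges overlapped through 2 NR tumors, CC036F1 isotype replicate 2 (71861) and CC080F1 isotype replicate 1 (59896). Tap1 ranged from 6988 to 9108 in R isotype tumors (median 7703) and from 4504 to 8566 in NR isotype tumors (median 5538), and the same CC036F1 tumor was the highest of the NR group. The log2 difference was 0.37 ± 0.13 for Tap1 (adjusted p = 0.073), 0.34 ± 0.19 for Nlrc5 (adjusted p = 0.31) and 0.21 ± 0.11 for H2-K1 (adjusted p = 0.24). Without CC036F1 isotype replicate 2, 4 genes passed: Tap1 (0.50, DESeq2 adjusted p = 0.0012), Nlrc5 (0.45, adjusted p = 0.034), H2-K1 (0.32, adjusted p = 0.011) and H2-D1 (0.28, adjusted p = 0.0072). Without CC080F1 isotype replicate 1, Tap1 passed (0.44, adjusted p = 0.025). In the deep libraries the 10 differences lay between -0.07 and 0.14.

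In aPD1 tumors 8 of the 10 genes were higher in R than in NR lines (DESeq2), beside 5.94% of 17159 genes called higher. Tap1, the peptide transporter subunit, had 8968, 11082 and 13467 normalized counts in R aPD1 tumors and 5332, 7071 and 8907 in NR aPD1 tumors, so the groups did not overlap. It differed by 0.71 ± 0.14 (1.64-fold, adjusted p = 6.1e-05). Nlrc5 had 6766, 8052 and 10442 normalized counts in R and 3636, 4598 and 8018 in NR tumors, with 1 NR tumor, CC036F1 aPD1 replicate 1, inside the R range. Its difference was 0.68 ± 0.19 (1.61-fold, adjusted p = 0.0069). Psmb9, an immunoproteasome subunit, had 3296, 3543 and 4233 in R and 2257, 2554 and 3013 in NR tumors, which did not overlap, and differed by 0.48 ± 0.10 (adjusted p = 7.0e-05). H2-D1, with 65584, 72161 and 77021 in R and 41092, 54289 and 63750 in NR tumors, did not overlap either, and differed by 0.41 ± 0.11 (1.32-fold, adjusted p = 0.0051), close to H2-K1 at 0.43 ± 0.11 (1.35-fold, adjusted p = 0.0039). B2m (0.33 ± 0.10, adjusted p = 0.016), Tap2 (0.31 ± 0.08, adjusted p = 0.0042) and Psmb8 (0.27 ± 0.07, adjusted p = 0.0040) passed as well. Tapbp (0.29 ± 0.10, adjusted p = 0.054) and Psmb10 (0.25 ± 0.13, adjusted p = 0.28) did not. In 5 of the 10 genes (H2-K1, H2-D1, Tap1, Tap2 and Psmb9) every R aPD1 tumor lay above every NR aPD1 tumor, beside 2.63% of all genes tested. The median difference of the 10 genes was 0.37, beside -0.012 over all genes tested. All 8 called genes kept the direction under edgeR's quasi-likelihood test, where 3 passed (Tap1, Tap2 and Psmb9), and under limma with line as a random effect, where 2 passed (Tap1 and Psmb9). Glycam1, a lymph node vessel gene, had counts in 3 tumors, the only CC080F1 aPD1 tumor among them, and without these tumors 3 genes passed (Tap1, Psmb9 and H2-D1), and the differences were smaller: 0.27 for H2-K1, 0.25 for H2-D1, 0.21 for B2m and 0.42 for Nlrc5.

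**Figure D2:**
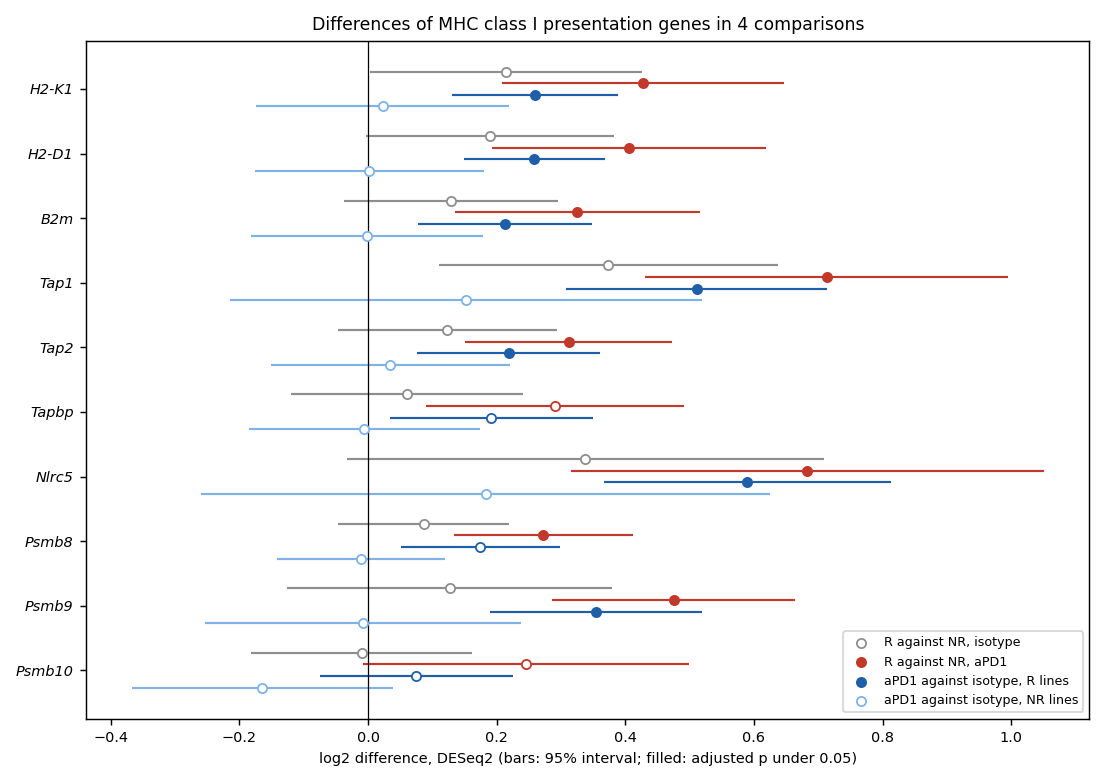
Log2 differences of the 10 genes (x axis) in 4 comparisons from DESeq2, with 95% intervals; filled points passed an adjusted p of 0.05. R and NR aPD1 tumors differed by 0.25 to 0.71 (red), whereas the changes with aPD1 in NR lines (light blue) lay between -0.16 and 0.18 with none filled.

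With aPD1, 7 of the 10 genes rose in R lines in a fit that kept each line's own level (DESeq2), beside 4.66% of 16188 genes called higher. Nlrc5 rose most, from 4674, 5638 and 6998 normalized counts in R isotype tumors to 6766, 8052 and 10442 in R aPD1 tumors, by 0.59 ± 0.11 (1.505-fold, adjusted p = 0.00013). Its 2 groups overlapped by 1 tumor of each antibody, both from CC001F1. Tap1 rose by 0.51 ± 0.10 (1.42-fold, adjusted p = 0.00030), also with an overlap within CC001F1 only. Psmb9 ran from 2438 to 3292 in isotype (median 2768) and from 3296 to 4233 in aPD1 tumors (median 3543), and rose by 0.35 ± 0.08 (adjusted p = 0.0029). H2-K1 rose by 0.26 ± 0.07 (1.197-fold, adjusted p = 0.0054) and H2-D1 by 0.26 ± 0.06 (1.196-fold, adjusted p = 0.00097). For H2-K1, H2-D1 and Psmb9 every R aPD1 tumor exceeded every R isotype tumor, 3 of 10 genes beside 0.599% of all genes tested. B2m (0.21 ± 0.07, adjusted p = 0.042) and Tap2 (0.22 ± 0.07, adjusted p = 0.0498) passed narrowly. Psmb8 (0.17 ± 0.06, adjusted p = 0.086), Tapbp (0.19 ± 0.08, adjusted p = 0.18) and Psmb10 (0.08 ± 0.08, adjusted p = 0.71) did not pass. The tools disagreed on these calls: edgeR's quasi-likelihood test called none of the 10 and none of all genes, with adjusted p of 0.064 for Tap1 and Nlrc5 and nearly the same log2 values, and 9 of the 10 had an unadjusted p under 0.05 in both tools. Without the line CC002F1 2 genes passed, Tap1 (0.49) and Nlrc5 (0.57).

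In NR lines none of the 10 genes passed, beside 0.0466% of 23611 genes called (DESeq2). None had an unadjusted p under 0.05, and edgeR called none either. The changes with aPD1 were 0.18 ± 0.23 for Nlrc5, 0.15 ± 0.19 for Tap1, 0.02 ± 0.10 for H2-K1, 0.00 ± 0.09 for H2-D1 and -0.16 ± 0.10 for Psmb10. The 95% interval was -0.17 to 0.22 for H2-K1 and -0.26 to 0.63 for Nlrc5, so a change of Nlrc5 as large as that in R lines lay inside it. In the deep libraries all 10 changes were negative, from -0.21 (Psmb9) to -0.03 (Nlrc5), with Tap1 at -0.11 and H2-K1 at -0.16, and none had an unadjusted p under 0.05. The difference of the antibody effect between R and NR lines was tested directly. It was positive for all 10 genes (0.19 to 0.42), but none passed (lowest adjusted p = 0.58, for H2-D1), beside 0.0342% of 26350 genes called, and 5 of the 10 had an unadjusted p under 0.05. A different response of these genes in R and NR lines was thus not shown over all libraries. The deep NR isotype tumors were CC036F1 replicate 2, CC079F1 replicate 1 and CC080F1 replicate 1, with H2-K1 at 71861, 45712 and 59896 normalized counts. The shallow NR isotype tumors of these lines, left out there, had 51323, 49082 and 43629. In the deep libraries 2 genes passed, H2-D1 (0.46, adjusted p = 0.016) and Psmb9 (0.63, adjusted p = 0.036).

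Within single lines, the mean log2(normalized count + 1) of aPD1 minus isotype tumors was positive for 10 of 10 genes in CC002F1 (median 0.38) and CC075F1 (median 0.22) and for 9 of 10 in CC001F1 (median 0.18), the exception being Psmb10 (-0.09). It was positive for 7 of 10 in CC079F1 (median 0.11) and 6 of 10 in CC036F1 (median 0.07). In CC080F1, whose aPD1 group is 1 tumor, all 10 values were negative, from -0.19 to -0.04. Nlrc5 changed by 0.77 in CC075F1, 0.63 in CC002F1, 0.48 in CC036F1 and 0.37 in CC001F1, so on this gene an NR line stood among the R lines. Tapbp, the loading factor, changed by 0.44 in CC002F1 but by 0.08 and 0.09 in the other R lines.

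**Figure D3:**
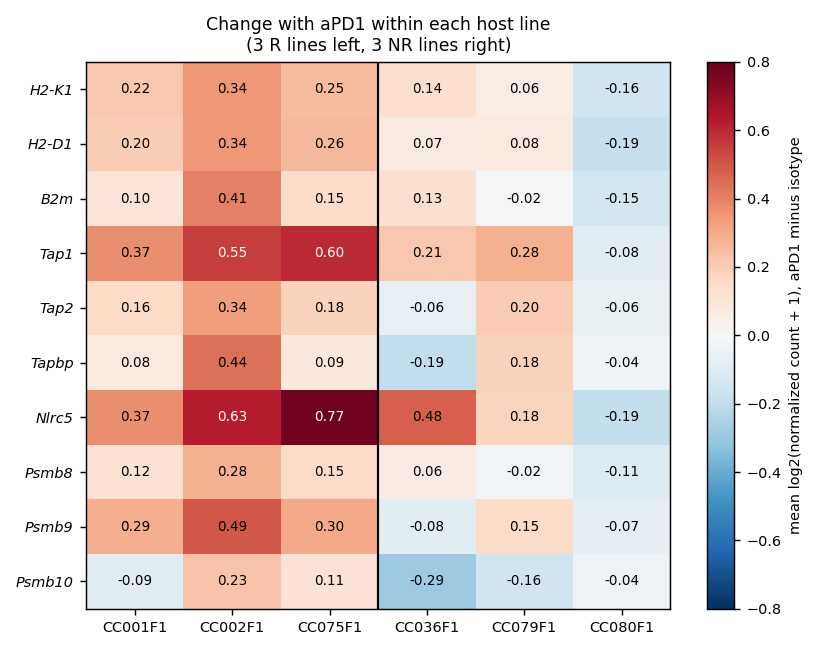
Difference of mean log2(normalized count + 1), aPD1 minus isotype tumors, for each gene (rows) in each host line (columns), each from 2 tumors per group except the single CC080F1 aPD1 tumor. The 3 R lines left of the black line are positive in all cells except Psmb10 in CC001F1, and CC080F1 is negative throughout, between -0.19 and -0.04.

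Each immunoproteasome subunit was set against the constitutive subunit it replaces, as a ratio of counts per kb within a library, which does not depend on scaling between libraries. The level of a ratio depends on the annotated exon lengths, whereas its log2 differences between tumors do not. Psmb9 over Psmb6 had a mean log2 ratio of -0.60 ± 0.10 (SD, n = 6) in R aPD1 tumors and -1.07 ± 0.26 (n = 5) in NR aPD1 tumors. The difference of 0.47 (1.39-fold) had an exact two-sided permutation p of 0.0022, the smallest that 6 against 5 tumors can give, and an adjusted p of 0.035 over the 16 ratio tests. It was the only ratio test of the 16 that passed, and none passed in the deep libraries (0.51, adjusted p = 0.13) or when any of 10 of the 11 aPD1 tumors was left out, which also raises the smallest p that can be reached. The R against NR tests moved labels over single tumors, as if tumors of a line were independent. On line means Psmb9 over Psmb6 differed by 0.49 between R and NR aPD1 tumors (exact permutation p = 0.1, the smallest possible there). With aPD1 in R lines Psmb9 over Psmb6 rose from -0.91 ± 0.19 to -0.60, a change of 0.31 with an exact permutation p of 0.0093, again the smallest possible when labels move within lines, and an adjusted p of 0.074. Psmb8 over Psmb5 was higher by 0.24 in R than in NR aPD1 tumors (exact permutation p = 0.017, adjusted p = 0.092) and by 0.20 in aPD1 than in isotype tumors of R lines (exact permutation p = 0.028, adjusted p = 0.11). Psmb10 over Psmb7 differed by 0.26 in the first of these comparisons and 0.13 in the second (exact permutation p = 0.069 and 0.26). The constitutive subunits moved little: Psmb5, Psmb6 and Psmb7 differed by 0.03, 0.01 and 0.01 between R and NR aPD1 tumors (DESeq2 adjusted p of 0.90 and above). Of the 14 constitutive and shared alpha and beta subunits, none passed in the R against NR comparisons or in either antibody comparison.

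**Figure D4:**
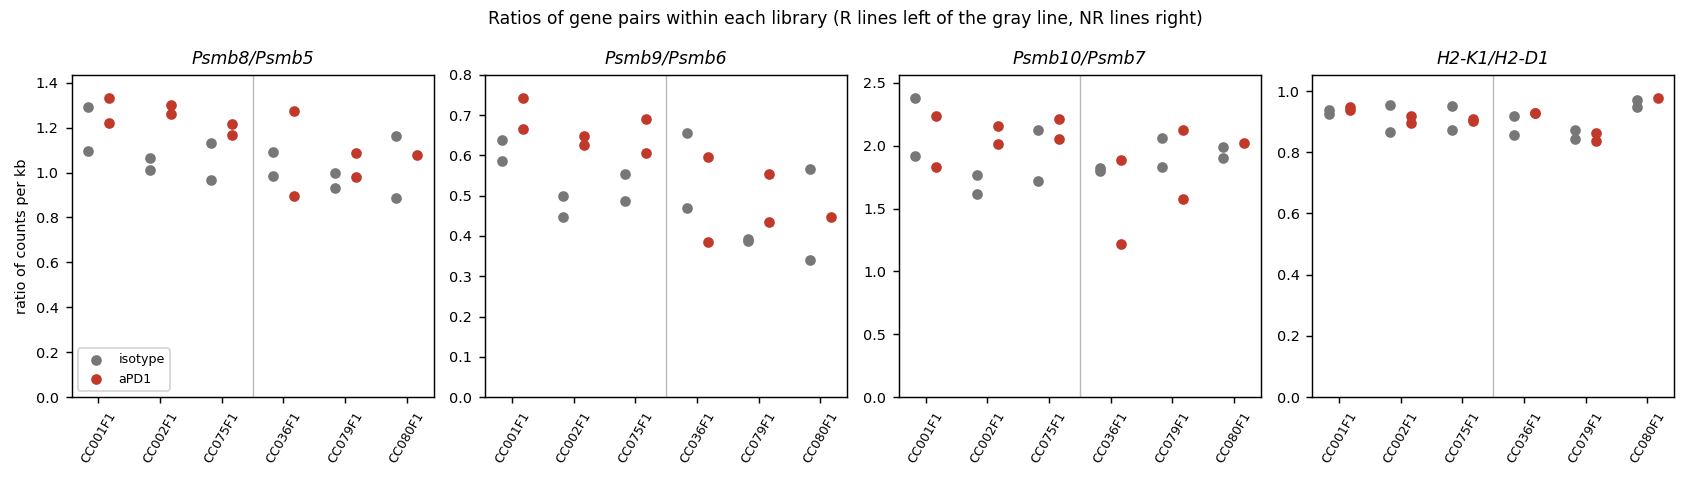
Ratio of counts per kb of each gene pair (y axis, linear from 0) in every tumor, by host line and antibody (gray, isotype; red, aPD1). Psmb9/Psmb6 is 0.606 or higher in all 6 R aPD1 tumors and 0.595 or lower in all 5 NR aPD1 tumors, and the median H2-K1/H2-D1 is lowest in CC079F1 (0.853) and highest in CC080F1 (0.972).

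Lines of the same class were compared next. Among the 3 R lines none of the 10 genes passed (DESeq2 likelihood ratio test of line, with 1.02% of 19563 genes called; no unadjusted p under 0.05, and edgeR called none), and the largest difference between line estimates was 0.08 to 0.25 on the log2 scale. Among the 3 NR lines H2-D1 (adjusted p = 0.0035, largest difference 0.45) and H2-K1 (adjusted p = 0.011, 0.41) passed, 2 of 10 genes beside 8.97% of 17896 genes. H2-K1 had medians of 66698 normalized counts in CC036F1 (51323 to 71861), 47397 in CC079F1 (45674 to 53362) and 45683 in CC080F1 (43629 to 59896), so CC036F1 lay near the R lines, whose medians were 67523 to 69294. edgeR called H2-D1 (adjusted p = 0.034) and Nlrc5 (0.046) but not H2-K1 (0.055). Without CC036F1 isotype replicate 2 neither passed (adjusted p = 0.17 for H2-K1 and 0.077 for H2-D1), and without CC080F1 isotype replicate 1, a tumor high for its line, 6 genes did. Neither passed without the 3 tumors with Glycam1 counts. The ratio of H2-K1 to H2-D1 per kb lay between 0.835 and 0.874 in the 4 CC079F1 tumors, between 0.947 and 0.976 in the 3 CC080F1 tumors, and between 0.856 and 0.953 in the other 4 lines. It did not differ in any of its 4 tests between classes or antibodies (differences of 0.0038 to 0.026 on the log2 scale, lowest exact permutation p = 0.39). These tests pool lines, so they do not address the ranges of single lines, and a difference of this ratio between lines was not tested. Hosts differ in their MHC haplotypes and counts were made on founder transcriptomes, and how far read assignment moves this ratio was not tested.

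Across the 23 tumors most of the 10 genes moved together. Over the 45 pairs the median Pearson r of log2(normalized count + 1) was 0.88, and 35 pairs passed a permutation test at an adjusted p of 0.05 over 75 relations. The highest was Tap1 with Nlrc5 (r = 0.97, rho = 0.98, permutation p = 1e-05 for each, the smallest that 100000 permutations can give, adjusted p = 1.9e-05 and 2.0e-05), at r = 0.98 within R and 0.96 within NR tumors and 0.96 without the 2 tumors farthest from the Tap1 median. H2-K1 with H2-D1 had r = 0.97 and rho = 0.99. These permutations, and those for Ifng below, moved single tumors without regard to line, class or antibody. Differences between such groups therefore enter both r over all tumors and its p. Psmb10 and Tapbp had the lowest r over all tumors. Correlated with the mean standardized level of the other 9 genes, Psmb10 had r = 0.27 and Tapbp r = 0.61, whereas the remaining 8 had r of 0.86 to 0.96. With the 8 genes other than Psmb10, Tapbp had r of 0.78 (H2-D1) to 0.94 (Tap2) within R tumors and of -0.41 (H2-D1) to 0.51 (Tap2) within NR tumors. Psmb10 with H2-D1 had r = -0.01, beside 0.56 within R and -0.57 within NR tumors. Differences between lines enter the r within a class as well. In CC036F1 Psmb10 was at 3106 to 4690 and H2-D1 at 52603 to 68612 normalized counts. In CC079F1 and CC080F1 these were 4196 to 5758 and 40454 to 54289. The r within single lines was not tested. In CC036F1 aPD1 replicate 2, Psmb10 (3106 normalized counts) and Tapbp (11041) were at their lowest of all tumors while H2-K1 was at 67342.

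Of the genes outside the set with a mean of at least 100 normalized counts (12045 genes), those most like the mean profile of the 10 genes included Gbp4 (Pearson r = 0.96), Gbp3 (0.95), Gbp7 (0.95), Gbp2 (0.94), Igtp (0.92), Irgm2 (0.92), Batf2 (0.92) and Gbp5 (0.92). Igtp and Irgm2 overlap on chromosome 11. Gbp genes encode guanylate-binding proteins and Igtp and Irgm2 immunity-related GTPases, all known as IFN-γ-induced. The r of the 10 closest genes was 0.87 to 0.97 within R and 0.84 to 0.90 within NR tumors. The points share libraries and their depth, and these values are descriptions.

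Ifng itself was low, at 29.5, 47.9 and 94.4 normalized counts in R isotype, 50.01, 147 and 289 in R aPD1, 14.5, 21.9 and 43.0 in NR isotype and 8.47, 15.9 and 51.2 in NR aPD1 tumors. It correlated with Tap1 at r = 0.86 (rho = 0.86, permutation p = 1e-05 for each, adjusted p = 1.9e-05 and 2.0e-05), at 0.89 within R and 0.55 within NR tumors, 0.90 in the deep libraries and 0.83 without the 2 tumors farthest from the Ifng median. With Psmb10 it had r = 0.27 (rho = 0.28, adjusted permutation p = 0.24 and 0.21). Ptprc, which encodes the leukocyte marker CD45, correlated with all 10 genes over all tumors at r of 0.43 to 0.64. Within R tumors its r was 0.49 to 0.85, but within NR tumors it ran from -0.63 to 0.43 and was negative for 8 of the 10 genes. These values pool lines that differ in level. Ptprc was at 2446 to 4340 normalized counts in CC036F1 and at 3783 to 6278 in CC079F1 and CC080F1. H2-K1 was at 51323 to 71861 in CC036F1 and at 43629 to 59896 in CC079F1 and CC080F1. A relation to Ptprc within single lines was not tested. CC036F1 isotype replicate 2 had the lowest Ptprc level of all tumors (2446 normalized counts) and 55.7 of Cd8a, with the highest H2-K1 and Tap1 of the NR isotype tumors.

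**Figure D5:**
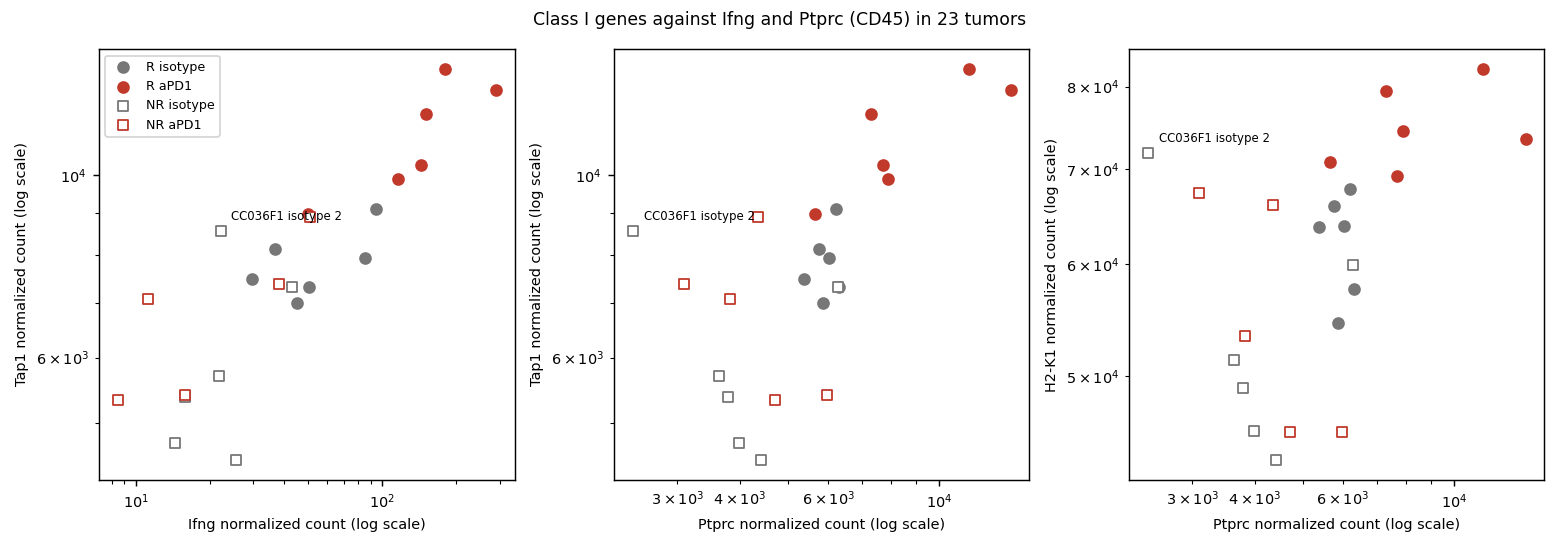
Normalized counts of Tap1 against Ifng (left) and of Tap1 and H2-K1 against Ptprc (middle and right) in 23 tumors, log axes; filled circles are R and open squares NR tumors, gray isotype and red aPD1. Tap1 follows Ifng (r = 0.86), whereas H2-K1 against Ptprc has r = 0.62 over R tumors and r = -0.49 over NR tumors. The NR value pools lines of different level, with CC036F1 tumors at low Ptprc and CC036F1 isotype replicate 2 at the lowest. A relation within single lines was not tested.

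The rest of the pathway was read from 37 further genes for loading, trimming, the proteasome and its activator, the class I promoter and IFN-γ signaling. In R against NR aPD1 tumors 4 of the 37 were higher and none lower (median 0.05), beside 5.94% of all genes called higher, among them Ifng (2.59 ± 0.47, DESeq2 adjusted p = 4.4e-06), Tapbpl, a tapasin-related peptide editor (0.47 ± 0.13, adjusted p = 0.0094), and the transcription factor Irf1 (0.44 ± 0.13, adjusted p = 0.020). With aPD1 in R lines 6 rose and none fell (median 0.02), beside 4.66% of all genes called higher, among them Ifng (1.4999), Stat2 (0.72), Irf9 (0.44), Irf1 (0.35) and Irf2 (0.19). The chaperone calreticulin (Calr, 0.04) and the trimming enzyme Erap1 (0.03) did not pass there, and the PA28 activator genes Psme1 (0.19, adjusted p = 0.19) and Psme2 (0.10, adjusted p = 0.22) did not either. In isotype tumors 2 were higher in R lines (Ifng at 1.21 and the activator subunit Psme3 at 0.22), and Rfx5, a component of the complex on the X box, was lower (-0.31, adjusted p = 0.029), 3 of 37 in all and close to the 5.52% of all genes called. In NR lines none of the 37 passed for aPD1 against isotype, with 1 at an unadjusted p under 0.05. No gene of the 37 passed the test of the difference in antibody effect (3 at an unadjusted p under 0.05).

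Cell type markers moved with these comparisons, and their part in the differences of the class I genes was not tested. Ptprc was higher in R than in NR aPD1 tumors (5651 to 13886 against 3100 to 5976 normalized counts), as were 3 of 5 T cell, 5 of 7 macrophage and 2 of 3 cDC1 (type 1 conventional dendritic cell) markers. Ptprc was also higher in R than in NR isotype tumors (0.53 ± 0.15, DESeq2 adjusted p = 0.014), where none of the 10 class I genes passed. Summed macrophage markers spanned 105410 to 180380 normalized counts in R aPD1, 67473 to 125600 in R isotype, 52482 to 114380 in NR isotype and 66271 to 99428 in NR aPD1 tumors. In R lines 4 of 7 macrophage and 2 of 3 cDC1 markers rose with aPD1, and no T cell marker passed. Summed T cell markers spanned 551 to 1347 and 683 to 2556 in R isotype and R aPD1 tumors and 157 to 1028 and 296 to 872 in NR isotype and NR aPD1 tumors. All markers of these 4 lists were above 0 in every tumor. Shisal2b, which the study uses to mark MC38 cells, did not pass in the R against NR or antibody comparisons, though it did among the 3 NR lines (adjusted p = 0.042; 460 to 1138 normalized counts over all tumors), while the epithelial keratins Krt8, Krt18 and Krt19 were at 0 in some tumors. Summed fibroblast markers had medians of 65226 in R isotype and 69680 in R aPD1 tumors. The NR medians were 131880 with isotype and 113790 with aPD1. Of the 4 genes, Col3a1 was lower in R lines over all tumors (-0.82 ± 0.24, adjusted p = 0.0090), while the other 3 did not pass. The median log2 difference of the 4 genes, R minus NR, was positive. It was 0.30 with both antibodies together, 0.11 under isotype control and 0.50 after aPD1. A sum mostly follows its most abundant genes, so these sums do not show that every fibroblast marker was lower in R lines. Of 3 endothelial markers, Pecam1 was higher in R lines over all tumors (0.52 ± 0.17, adjusted p = 0.020) and in aPD1 tumors (0.84 ± 0.21, adjusted p = 0.0027). Skeletal muscle markers were higher in R than in NR aPD1 tumors (5 of 5, with sums of 35.97 to 13594 against 34.7 to 258), and B cell markers were lower (4 of 4, 46.2 to 182 against 137 to 3142). The highest B cell sums of NR aPD1 tumors, 3142 in CC080F1 and 755 in CC079F1 replicate 1, were in tumors with Glycam1 counts. The other NR aPD1 tumors had B cell sums of 137 to 261. Without the 4 tumors with the highest sums of muscle markers, 7 of the 10 class I genes passed in aPD1 tumors, 6 for aPD1 in R lines and 4 over all tumors.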

How the data were processed

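Bulk tumor RNA was sequenced from poly(A) libraries. The authors built transcriptomes of the founder strains on GRCm38 with GENCODE annotation and g2gtools, aligned reads with Bowtie 1.2.3 and estimated counts with gbrs; they deposited expected counts per gene, unscaled, with shared reads split between genes and haplotypes (56.09% of the values of the 10 genes were not whole). R and NR are named in the study's text, not in the sample labels. Values were rounded to whole numbers, genes with at least 5 counts in a fit were kept, and DESeq2 1.42.0 (R 4.3.3) was run with adjusted p under 0.05 over all genes tested. This is the study's tool. Tumors of a line were treated as independent. Normalized counts are counts divided by DESeq2 size factors over all 23 tumors. Of the gene IDs, 26681 matched GENCODE vM21, which gave names, positions and exon lengths. Alternatives used edgeR 4.0.16, limma 3.58.1, other library sizes and filters, deep libraries, counts summed per line, and omission of tumors, lines or replicates. The fits were tested on simulated counts. The genes, lists and tests were chosen with earlier results of these data known. All 10 genes are named. The other 37 pathway genes are counted in full and in part named, and the 10 most similar genes were taken by Pearson r. Results of some genes counted in these lists are not reported here. Pairs of tumors of the same group differed by 11.3 to 187 in chi-square per degree of freedom, above sampling noise.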

Additional observations from a re-analysis of the deposited data

Results flagged for a closer look

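Among 56 groups of 5 or 6 tumors examined for a tumor far from the rest (10 genes and 4 ratios), 1 was found. Chance gives about 1 in 20 groups, so 1 among 56 is no more than chance gives. CC001F1 aPD1 replicate 2 had 4233 normalized counts of Psmb9, and its gap to the next R aPD1 tumor was 0.658 of the range of that group, above the critical value for 6 tumors. Over all 23 tumors it also had the highest H2-K1 (82324), H2-D1 (77021), Tap1 (13467), Tap2 (7974), Nlrc5 (10442) and Psmb8 (14363). Its Ptprc level was 11444 normalized counts and its Ifng level 181.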

How the results depend on the processing

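Of the 10 genes, 8 passed in R against NR lines over all tumors, but 1 in the deep libraries only, 4 in the shallow libraries only, 3 with counts summed per line, 4 without the 4 tumors highest in muscle markers, 3 without CC001F1 and 1 without CC079F1; leaving out 1 tumor gave 8 to 9. In isotype tumors none passed, but 3 without CC036F1, and 0 to 4 with 1 tumor left out (4 without CC036F1 isotype replicate 2, 1 without CC080F1 isotype replicate 1). In aPD1 tumors 8 passed, but 3 by edgeR, 2 by limma with line as a random effect, 3 without the 3 tumors with Glycam1 counts and 3 without CC079F1; 1 tumor left out gave 7 to 9. For aPD1 in R lines 7 passed, but 0 by edgeR and 2 without CC002F1; 1 tumor left out gave 5 to 9. The difference of the antibody effect gave 0, but 2 in the deep libraries. Among R lines 0 passed, but 1 without the same 4 muscle-marker tumors. Among NR lines 2 passed, but 4 in the deep libraries and 0 without the Glycam1 tumors; 1 tumor left out gave 0 to 6. Of the ratios 1 passed, but 0 in the deep libraries and 0 on line means, where 3 lines against 3 cannot give a p below 0.1 and Psmb9/Psmb6 differed by 0.49; 1 tumor left out gave 0 to 3. No direction of a called result was reversed. Where a change follows from fewer samples that construction applies; otherwise the cause was not tested. Omissions by Glycam1, muscle markers or line and the shallow libraries were chosen after seeing the data.

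The labels link isotype and aPD1 tumors of a line only by the replicate number, and whether such tumors were paired is not stated. The deviations of same-numbered tumors correlated at 0.37, 0.06, -0.20, 0.20 and 0.11 in the 5 lines with 2 tumors per antibody. With the replicate block 8 of the 10 genes passed over all tumors, 0 in isotype tumors, 8 in aPD1 tumors, 6 for aPD1 in R lines (without B2m, adjusted p = 0.093 by DESeq2), 0 in NR lines, 0 for the difference of the antibody effect, 0 among R lines and 2 among NR lines.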

Other observations

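Of the other 37 pathway genes, 4 differed among the 3 NR lines (DESeq2 likelihood ratio test), close to the 8.97% of all genes called, so the values are given gene by gene and not as a result about the pathway. Ifngr1 and Ifngr2 encode the chains of the IFN-γ receptor. Ifngr1 spanned 2974 to 3495 normalized counts in CC036F1, 3805 to 4197 in CC079F1 and 4135 to 4737 in CC080F1 (adjusted p = 3.3e-05). CC036F1 lay below both other lines in every tumor, while its H2-K1 and H2-D1 medians were the highest of the NR lines. Ifngr2 had the same order of medians, 2075, 2284 and 2514 (adjusted p = 0.0043), as did Pdia3, a chaperone of peptide loading, with 20992, 22742 and 24522 (adjusted p = 0.0053). Stat2 was highest in CC036F1, with a median of 3548 against 2451 in CC079F1 and 2639 in CC080F1 (adjusted p = 0.022).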
